A study of Mus musculus with 12 samples.

Results

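The actin cytoskeleton and contractile genes described here are 52 listed genes, picked by symbol from a matrix of 55359 gene identifiers. They cover the actins, the proteins that crosslink and coat actin filaments, myosin II, focal adhesion proteins, actin monomer binding and turnover proteins, the Arp2/3 complex, membrane linkers, intermediate filament proteins, and SRF with small GTPases. Each symbol was found, and Myl12b had 2 rows, of which the one with the higher mean was used. Of the 52 genes, 50 reached 1 TPM in at least 3 libraries and were tested among 12836 genes. Cnn1 and Des did not.

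The libraries came from ISOS-1, a mouse angiosarcoma cell line, grown in DMEM with 10% fetal bovine serum and labelled as wild-type endothelial cells. DMSO is the solvent control. SAHA was used at 1 µM over 24 h. The VPA dose was 2 mM and the JQ1 dose 1 µM, both over 36 h. Each of the 4 groups has 3 libraries. No duration is given for DMSO. SAHA (vorinostat) and VPA (valproic acid) inhibit histone deacetylases, and JQ1 displaces the BET family of bromodomain proteins from acetylated chromatin. All groups are 1 cell line. The labels leave unsaid whether the libraries of a group are separate cultures, and the p-values then cover no more than the spread among libraries, which may be technical. RNA was read from the 3′ end of transcripts, and levels are in TPM, a length-scaled abundance with a fixed total per library, which keeps no sequencing depth. The counting precision of each value is therefore unknown.

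Actin filaments are built from monomers that profilin delivers and beta-thymosins hold back, are severed by cofilin, branched by the Arp2/3 complex, and coated by tropomyosins that set which motors and binding proteins can attach. Bundled with alpha-actinin and pulled by non-muscle myosin II, they form stress fibres that end in focal adhesions. RhoA and its relatives switch this assembly on, and the Rnd GTPases oppose it. When monomers are used up, MRTF coactivators move to the nucleus and join SRF, a transcription factor that binds the CArG box in the promoters of many actin, myosin and adhesion genes. In endothelial cells this machinery carries barrier tension, spreading and migration.

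A letter search of the promoters, from 250 bases before to 50 bases after the annotated start, was made for 49 members with a RefSeq window. Actb, Tagln and Cttn had none. The CArG box, read by its name on both strands, was present in 7 of these 49 members (14.3%) and in 1.81% of 27025 genes with a window. The TATA box (TATAAA, both strands) was present in 8 members (16.3%) and in 15.7% of all genes. The TEAD site (GGAATG, both strands) was present in 14 members (28.6%) and in 16.6% of all genes. The sequences below are the stretches around the CArG boxes, shown because SRF, itself a member, binds this box. They come from the 7 members that hold it, with the boxes in capitals, read 5′ to 3′ on the strand of the gene (RefSeq, GRCm38.p6).
Srf: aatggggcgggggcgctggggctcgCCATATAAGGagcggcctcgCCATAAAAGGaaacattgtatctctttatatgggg
Vcl: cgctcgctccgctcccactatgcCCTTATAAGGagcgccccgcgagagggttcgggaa
Actg1: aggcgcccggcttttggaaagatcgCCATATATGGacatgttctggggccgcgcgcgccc
Cnn2: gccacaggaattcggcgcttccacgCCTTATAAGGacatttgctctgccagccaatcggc
Myl6: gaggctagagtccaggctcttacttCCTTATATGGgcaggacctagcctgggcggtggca
Myl9: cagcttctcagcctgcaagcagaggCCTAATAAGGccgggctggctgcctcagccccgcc
Rnd3: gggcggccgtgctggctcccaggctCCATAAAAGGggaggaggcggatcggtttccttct
The Srf stretch lies at chr17:46556190-46556269 (-) and holds 2 boxes that begin 82 and 62 bases before the start of Srf. Those of Vcl at chr14:20929148-20929205 (+), Actg1 at chr11:120348551-120348610 (-) and Cnn2 at chr10:79988519-79988578 (+) hold 1 box each, 227, 90 and 56 bases before the start. Those of Myl6 at chr10:128493025-128493084 (-), Myl9 at chr2:156775278-156775337 (+) and Rnd3 at chr2:51149177-51149236 (-) hold 1 box each, 50, 161 and 100 bases before the start. These 7 genes did not move in 1 direction. With JQ1, Myl6, Rnd3 and Vcl rose, Cnn2 and Srf fell, and Actg1 and Myl9 did not pass the test. With VPA, Cnn2 and Myl6 rose, and with SAHA, Actg1 fell. A box is a match of letters and not a site shown to be bound.

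JQ1 changed most of the module and did so in both directions, while SAHA and VPA changed fewer members and mostly upwards. With SAHA, 14 of 50 tested members were higher than with DMSO (28%) and 4 were lower (8%), beside 3.09% and 2.1% of all tested genes (limma on log2(TPM + 1), Benjamini-Hochberg adjusted p under 0.05 over all tested genes). With VPA, 11 members were higher (22%, beside 2.95% of all genes) and 0 were lower (beside 1.32%), where 4 members were lower at an unadjusted p under 0.05. Under median-of-ratios scaling, 10 members were higher and 3 lower with VPA, the lower ones being Arpc1b (adjusted p = 0.0109), Rdx (0.0217) and Vim (0.0394). With JQ1, 18 members were higher (36%) and 19 were lower (38%), beside 12.9% and 21% of all tested genes. Under median-of-ratios scaling the JQ1 counts were 21 higher and 15 lower among members, and 2070 and 2290 among all genes. The median log2 change of the members was 0.15 with SAHA, 0.08 with VPA and -0.08 with JQ1, and over all tested genes it was 0.01, 0.06 and -0.07. The median size of the change, whatever its sign, was 0.26 for members and 0.27 for all genes with SAHA, 0.19 and 0.26 with VPA, and 0.64 and 0.5 with JQ1. In bulk RNA, a change in the share of cells that express a gene and a change in the RNA per cell cannot be told apart.

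Calls were more frequent among abundant genes, and 45 of the 50 tested members averaged at least 10 TPM. Among all 5720 genes at that level, 5.38% were higher and 3.95% lower with SAHA, 4.6% higher and 2.43% lower with VPA, and 16.5% higher and 34.2% lower with JQ1. The 45 members at that level were higher in 26.7% and lower in 8.89% with SAHA, higher in 24.4% with VPA, and higher in 37.8% and lower in 40% with JQ1. The shares of higher members were thus above those of all genes of this abundance with each drug. The share of lower members was near that of such genes with JQ1, above it with SAHA (8.89% beside 3.95%) and below it with VPA (0% beside 2.43%). Since the members were chosen with earlier results of these data known, these shares describe the list and test nothing. Summed over the 52 genes, the module took 1.62% ± 0.0067 of library TPM with DMSO, 1.89% ± 0.0162 with SAHA, 1.75% ± 0.00491 with VPA and 1.84% ± 0.0117 with JQ1 (SD, n = 3).

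Of the 50 tested members, those that passed the test with no drug were Actn4, Fscn1, Cnn3, Myl9, Mylk, Cfl1, Cfl2, Arpc5 and Cttn. The 3 comparisons share the DMSO libraries, so a member far off in those libraries would move with each drug, and the changes with each drug are given side by side below without counting their overlap.

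**Figure D1:**
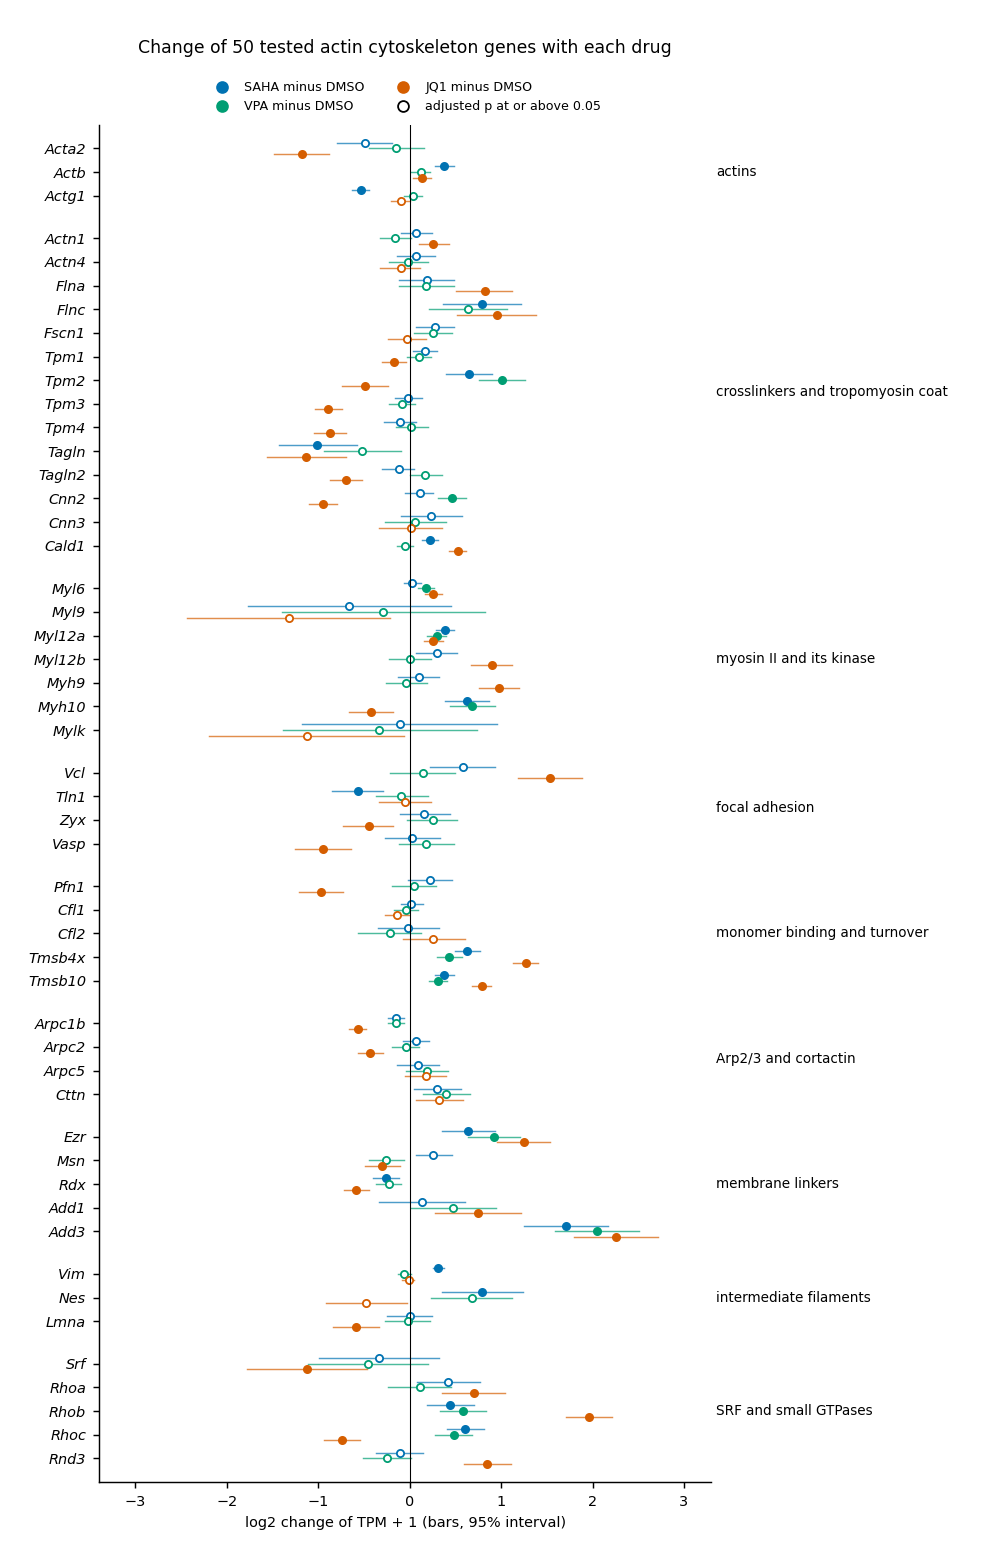
Change of each of the 50 tested members against DMSO, by role, as log2 change of TPM + 1 (x axis), with 1 point per drug and bars for the 95% interval; filled points passed the adjusted p of 0.05 and open points did not. Add3 lay farthest to the right with all 3 drugs (1.71, 2.05 and 2.26), and the orange JQ1 points spread farthest to both sides.

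Library-wide values bear on how these changes read. Mitochondrially encoded genes took 11.1 to 11.2% of TPM with DMSO, 11 to 11.7% with SAHA, 11.9 to 12.4% with VPA and 14.3 to 15.3% with JQ1, and with these genes and the ribosomal RNA gene Rn18s left out of the total, 16 members were called with SAHA, 11 with VPA and 36 with JQ1. Identifiers above 0 TPM numbered 13735 to 14799 per library. Of 12 blood endothelial markers, 3 reached 1 TPM in any library (Pecam1, Egfl7 and Cd34), and Cdh5, Vwf, Cldn5 and Erg stood at 0 in all 12, so the endothelial label rests on few of its defining genes at this level. Fibroblast markers reached 1 TPM for 8 of 10 genes, which moved in both directions. Their summed levels were 792 to 833 TPM with DMSO, 1114 to 1263 TPM with SAHA, 994 to 1064 TPM with VPA and 817 to 849 TPM with JQ1, with 4 of the 8 tested genes higher and 1 lower with SAHA, 1 and 2 with VPA, and 1 and 3 with JQ1. Most of the gain with SAHA and VPA was Thy1, at 154 TPM with DMSO, 567 TPM with SAHA and 494 TPM with VPA, while Aspn fell from 13.9 TPM to 4.21 and 2.84 TPM. With JQ1, Col1a2 rose from 470 to 541 TPM and Col3a1 fell from 19.2 to 3.3 TPM. The summed blood endothelial markers, mostly Cd34, were at 102 to 122 TPM with DMSO, 196 to 215 with SAHA, 129 to 163 with VPA and 61.8 to 66.5 with JQ1. Of 4 lymphatic endothelial markers Pdpn alone reached 1 TPM, and their sum was 69.1 to 77.6 TPM with DMSO, 107 to 122 with SAHA, 105 to 107 with VPA and 45.8 to 49.1 with JQ1. Epithelial markers reached 1 TPM for 2 of 7 genes, and their sum, nearly all Krt19, was 11.2 to 12.6 TPM with DMSO, 21.9 to 26.4 with SAHA, 25 to 35.8 with VPA and 30.4 to 40.3 with JQ1. Striated muscle markers did so for 3 of 12 genes, with sums of 4.18 to 6.65 TPM with DMSO, 6.81 to 15.4 with SAHA, 4.99 to 6.62 with VPA and 1.04 to 2.06 with JQ1. The leukocyte markers did so for 1 of 7 and summed to at most 2.21 TPM. The part of these markers in the changes described was not tested.

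The actins moved apart from each other. Actb encodes beta-actin, the main cytoplasmic actin. Its level was 3314, 3239 and 3302 TPM with DMSO, 4104, 4233 and 4523 TPM with SAHA, 3642, 3718 and 3348 TPM with VPA and 3695, 3621 and 3511 TPM with JQ1. All SAHA libraries lay above all others, and Actb rose 1.3-fold with SAHA (log2 change 0.38, adjusted p = 0.000861). With JQ1 the rise was 1.1-fold (0.14, adjusted p = 0.037), and with VPA the log2 difference was 0.12 with an adjusted p of 0.186. Actg1 encodes gamma-actin, the other cytoplasmic form, which differs from beta-actin by a few residues at its start. Its level was 739, 712 and 681 TPM with DMSO, 491, 498 and 482 TPM with SAHA, 722, 708 and 763 TPM with VPA and 659.8, 658 and 668 TPM with JQ1. The SAHA libraries were the lowest and overlapped no other group, and Actg1 fell 1.45-fold with SAHA (-0.53, adjusted p = 7.95e-05). The share of Actb in the TPM of the 3 actins was 81.2% ± 0.683 with DMSO and 89% ± 0.619 with SAHA (SD, n = 3), while that of Actg1 was 17.6% ± 0.576 and 10.2% ± 0.559.

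Acta2 encodes the alpha-actin of smooth muscle, which also marks contractile fibroblasts. Its level was 59.8, 47.6 and 47.8 TPM with DMSO, 35.2, 39.3 and 34.4 TPM with SAHA, 45.7, 42.7 and 51.1 TPM with VPA and 21.6, 26.3 and 19.1 TPM with JQ1. The JQ1 libraries were the lowest with no overlap, and Acta2 fell 2.27-fold with JQ1 (-1.18, adjusted p = 6.06e-05). With SAHA the libraries also lay below those with DMSO, at a log2 difference of -0.49, adjusted p = 0.0691, which passed only without JQ1 replicate 2 (0.0493). Of 15 smooth muscle and pericyte markers outside the members, 4 reached 1 TPM (Smtn, Pdgfrb, Mcam and Casq2) and Myocd, Rgs5, Kcnj8, Abcc9 and Pln stood at 0 in all libraries. Their summed level was 19 to 33.5 TPM with DMSO, 19.4 to 23.6 TPM with SAHA, 17.2 to 20.7 TPM with VPA and 10.2 to 12.7 TPM with JQ1, and most of it was Smtn. Whether the cells that carry these markers had a part in the change of Acta2 was not tested. The rise of Actb with JQ1 did not hold without any 1 of the DMSO libraries, JQ1 replicate 1 or JQ1 replicate 2 (adjusted p from 0.0698 to 0.114). Genes outside the members that share 50-base stretches with the 3′ end of Actg1 had a summed TPM equal to 5.32% of that of Actg1. These were mainly Lrrc58 (18.26 TPM) and Gm15725 (15.61 TPM), averaged over all libraries, which share only 9 stretches each with Actg1. Actb shares 30 such stretches with Actg1 and is not in that percentage, so reads could be split between the 2 actins.

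**Figure D2:**
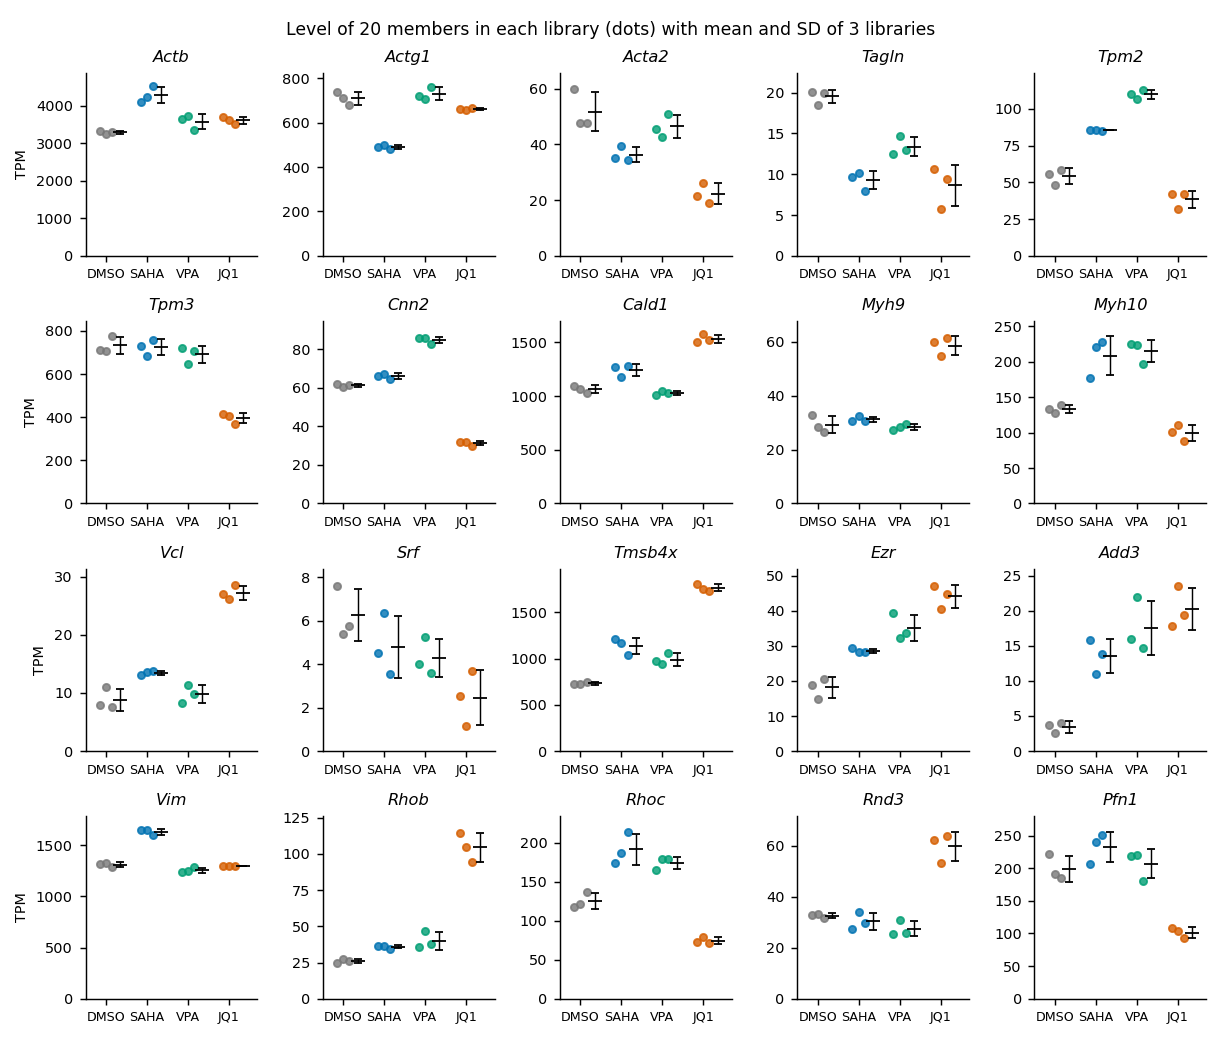
Level in TPM (y axis, from 0) of 20 members in each library (dots) by group, with the mean and SD of the 3 libraries beside the dots. The SAHA dots stood apart for genes that include Actb, Actg1 (482 to 498 TPM) and Vim. The JQ1 dots did so for genes that include Acta2, Tpm3, Cnn2, Myh9, Vcl, Tmsb4x, Rhob, Rnd3 and Pfn1.

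Tropomyosins lie along the filament groove and decide which proteins reach it, and the 4 genes parted with the drugs. Tpm2 encodes beta-tropomyosin. Its level was 56.0, 48.4 and 58.4 TPM with DMSO, 85.6, 85.5 and 85.2 TPM with SAHA, 110.3, 107 and 113 TPM with VPA and 41.8, 31.8 and 42.0 TPM with JQ1. The 4 groups did not overlap, with VPA highest and JQ1 lowest. Tpm2 rose 1.57-fold with SAHA (0.65, adjusted p = 0.00757) and 2.01-fold with VPA (1.01, adjusted p = 0.000718), and it fell 1.4-fold with JQ1 (-0.49, adjusted p = 0.00575). Tpm3, whose products coat filaments in most non-muscle cells, was at 711, 709 and 778 TPM with DMSO, 731, 686 and 757 TPM with SAHA, 719.6, 648 and 707 TPM with VPA and 416, 404 and 369 TPM with JQ1. Only the JQ1 libraries stood apart, at 1.85-fold below DMSO (-0.89, adjusted p = 1.67e-06). Tpm4, another tropomyosin of non-muscle cells, was at 144, 167 and 145 TPM with DMSO, 142, 141 and 138 TPM with SAHA, 154, 162 and 145 TPM with VPA and 77.2, 82.2 and 87.6 TPM with JQ1. It too fell with JQ1, by 1.83-fold (-0.87, adjusted p = 8.73e-06). Tpm1, the alpha-tropomyosin gene, was at 500.3, 507 and 505 TPM with DMSO, 577, 567 and 554 TPM with SAHA, 534, 579.9 and 507 TPM with VPA and 419, 476 and 454 TPM with JQ1. The JQ1 libraries were the lowest, with a fall of 1.12-fold that just passed (-0.17, adjusted p = 0.049).

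The summed TPM of the 4 tropomyosin genes was 1443 ± 39.2 with DMSO, 1517 ± 32.2 with SAHA, 1496 ± 22.8 with VPA and 967 ± 23.1 with JQ1 (SD, n = 3). Tpm3 made up 50.8% ± 1.45 of it with DMSO and 41% ± 2.45 with JQ1, and Tpm1 made up 34.9% ± 0.838 and 46.5% ± 2.22. The call on Tpm1 ended without any 1 of the DMSO or SAHA libraries, VPA replicate 1, JQ1 replicate 1 or JQ1 replicate 3 (adjusted p from 0.0568 to 0.176). It also ended under median-of-ratios scaling (0.553) and with TPM multiplied by gene length (0.26). Genes that share 50-base stretches with the 3′ end of Tpm3 or Tpm4 may hold some of their reads. Tpm3-rs7 shares 754 with Tpm3 and averaged 137 TPM with DMSO and 75.0 TPM with JQ1. Gm7809 shares 45 with Tpm4. The summed TPM of such genes equalled 19.1% of that of Tpm3 and 18.1% of that of Tpm4.

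Transgelins and calponins bind the sides of filaments and are known as markers of contractile cells. Tagln encodes SM22-alpha. Its level was 20.1, 18.5 and 20.0 TPM with DMSO, 9.62, 10.1 and 7.99 TPM with SAHA, 12.4, 14.7 and 12.9 TPM with VPA and 10.6, 5.79 and 9.43 TPM with JQ1. The DMSO libraries were the highest with no overlap. Tagln fell 2.01-fold with SAHA (-1.01, adjusted p = 0.0135) and 2.19-fold with JQ1 (-1.13, adjusted p = 0.000942), and the log2 difference with VPA was -0.52, adjusted p = 0.178. Tagln2, the form of non-muscle cells, was at 156, 143 and 148 TPM with DMSO, 129.9, 147 and 134 TPM with SAHA, 167, 168 and 169 TPM with VPA and 85.1, 101 and 88.5 TPM with JQ1. It fell 1.62-fold with JQ1 (-0.70, adjusted p = 4.74e-05), where its libraries overlapped no other group. Cnn2, a calponin of non-muscle cells, was at 62.0, 60.3 and 61.4 TPM with DMSO, 66.3, 67.3 and 64.3 TPM with SAHA, 85.8, 85.8 and 82.8 TPM with VPA and 32.1, 31.8 and 30.1 TPM with JQ1. It rose 1.38-fold with VPA (0.46, adjusted p = 0.00525) and fell 1.93-fold with JQ1 (-0.95, adjusted p = 1.9e-06), each time without overlap. Cnn1, the calponin of smooth muscle, was not tested. It was listed at 0, 1.12 and 0 TPM with DMSO, 0.91, 0 and 0 TPM with SAHA, 3.07, 0.24 and 0.3 TPM with VPA and 0.24, 0 and 0 TPM with JQ1. The call on Tagln with SAHA ended without DMSO replicate 1 (0.0505) or SAHA replicate 3 (0.0529).

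Caldesmon, Flna and Flnc rose with JQ1. Cald1 encodes caldesmon, which restrains myosin on actin. Its level was 1096, 1070.2 and 1026 TPM with DMSO, 1269, 1177 and 1276 TPM with SAHA, 1008, 1048 and 1025 TPM with VPA and 1500.0, 1576 and 1524 TPM with JQ1. It rose 1.44-fold with JQ1 (0.53, adjusted p = 3.34e-06) and 1.17-fold with SAHA (0.22, adjusted p = 0.0133). Flna encodes filamin A, which crosslinks filaments into networks and ties them to integrins. It was at 10.6, 13.2 and 14.8 TPM with DMSO, 14.3, 14.3 and 15.3 TPM with SAHA, 13.3, 15.2 and 15.4 TPM with VPA and 23.1, 24.9 and 21.7 TPM with JQ1. Only the JQ1 libraries stood apart, 1.76-fold above DMSO (0.82, adjusted p = 0.000874). Flnc encodes the filamin best known from muscle. It was at 4.64, 3.26 and 4.63 TPM with DMSO, 9.03, 6.24 and 8.57 TPM with SAHA, 5.83, 8.12 and 7.27 TPM with VPA and 8.89, 9.66 and 8.23 TPM with JQ1. Each treated library exceeded every DMSO library, and the rise passed with JQ1 (0.95, adjusted p = 0.00304) and SAHA (0.79, adjusted p = 0.0423) but not with VPA (0.64, adjusted p = 0.0985). Among the other crosslinkers, Actn1 (alpha-actinin 1) rose from 143 ± 9 to 172 ± 15.2 TPM with JQ1 (0.26, adjusted p = 0.0198). Actn4, Fscn1 (fascin, the bundler of filopodia) and Cnn3 passed with no drug, and Fscn1 passed with SAHA only without DMSO replicate 2 (0.0488).

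With SAHA, the rise of Flnc held only without SAHA replicate 2 or VPA replicate 1, and without each other library the adjusted p was 0.054 to 0.14. The rise of Cald1 with SAHA ended without DMSO replicate 3 (0.0567) or SAHA replicate 1 (0.052), and that of Actn1 with JQ1 ended without DMSO replicate 2 (0.0793), JQ1 replicate 1 (0.0788) or JQ1 replicate 3 (0.0618).

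Of the non-muscle myosin II heavy chains, Myh10 had more TPM than Myh9 in every group, and the makeup of the pair shifted. Myh9 encodes the heavy chain of myosin IIA. Its level was 32.9, 28.5 and 26.4 TPM with DMSO, 30.7, 32.3 and 30.6 TPM with SAHA, 27.2, 28.4 and 29.6 TPM with VPA and 59.9, 54.5 and 61.2 TPM with JQ1. With JQ1 it rose 1.97-fold (0.98, adjusted p = 2.42e-05), and its log2 difference was 0.10 with SAHA and -0.04 with VPA. Myh10 encodes the heavy chain of myosin IIB. It was at 133, 128 and 139 TPM with DMSO, 177, 221 and 228 TPM with SAHA, 225, 224 and 197 TPM with VPA and 100.5, 111 and 88.5 TPM with JQ1. It rose 1.55-fold with SAHA (0.63, adjusted p = 0.00776) and 1.61-fold with VPA (0.68, adjusted p = 0.00653), and it fell 1.34-fold with JQ1 (-0.42, adjusted p = 0.0124). The share of Myh9 in the TPM of both chains was 18% ± 1.92 with DMSO, 13.1% ± 1.49 with SAHA, 11.7% ± 1.19 with VPA and 37.1% ± 3.95 with JQ1 (SD, n = 3), while their sum was 163 ± 5.42 TPM with DMSO and 158 ± 7.9 TPM with JQ1. The fall of Myh10 with JQ1 ended without JQ1 replicate 3 (adjusted p = 0.051) and under median-of-ratios scaling (0.053).

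The light chains rose where they passed. Myl12a encodes a regulatory light chain, the subunit whose phosphorylation turns non-muscle myosin on. Its mean level was 748 ± 26.8 TPM with DMSO, 981 ± 23.9 TPM with SAHA, 921 ± 42 TPM with VPA and 898 ± 33.6 TPM with JQ1 (SD, n = 3). It rose with each drug (log2 changes 0.39, adjusted p = 0.00102 for SAHA, 0.30, adjusted p = 0.0063 for VPA, 0.26, adjusted p = 0.00131 for JQ1). Myl12b encodes a near-identical regulatory light chain. Its level was 107, 109 and 90.5 TPM with DMSO, 132, 113 and 133 TPM with SAHA, 115, 96.7 and 95.1 TPM with VPA and 196, 183 and 194 TPM with JQ1. Only the JQ1 libraries stood apart, 1.86-fold above DMSO (0.90, adjusted p = 5.02e-05). Since Myl12a and Myl12b share 192 stretches of 50 bases near their 3′ ends, reads could be split between them. The second row of Myl12b had a TPM equal to 13% of that of the row used. That row averaged 16.7 TPM with DMSO and 7.18 TPM with JQ1, opposite to the row used. Myl6, the essential light chain, rose from 1069 ± 25.8 TPM to 1212 ± 36.7 TPM with VPA (0.18, adjusted p = 0.0329) and 1281 ± 35.6 TPM with JQ1 (0.26, adjusted p = 0.000486). Its rise with VPA ended without any 1 DMSO or VPA library (adjusted p from 0.0577 to 0.109) and under median-of-ratios scaling (0.213).

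The contractile isoform and the kinase were low. Myl9 encodes the regulatory light chain of smooth muscle and stress fibres. It was listed at 1.78, 2.74 and 0.5 TPM with DMSO, 0, 1.33 and 0.71 TPM with SAHA, 0, 2.65 and 1.33 TPM with VPA and 0 in all JQ1 libraries. The difference between JQ1 and DMSO had an adjusted p of 0.0656, which was 0.0373 without DMSO replicate 3, 0.0327 without VPA replicate 1 and 0.0499 without VPA replicate 2. It also passed with a pseudocount of 0.1 (0.0448), in the 2-group fit (0.0363) and with the replicate block (0.0456). Mylk, the myosin light chain kinase, was at 3.41 ± 3.12 TPM with DMSO and 0.787 ± 0.515 TPM with JQ1 (-1.12, adjusted p = 0.0998). That difference passed with the replicate block (0.0466).

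**Figure D3:**
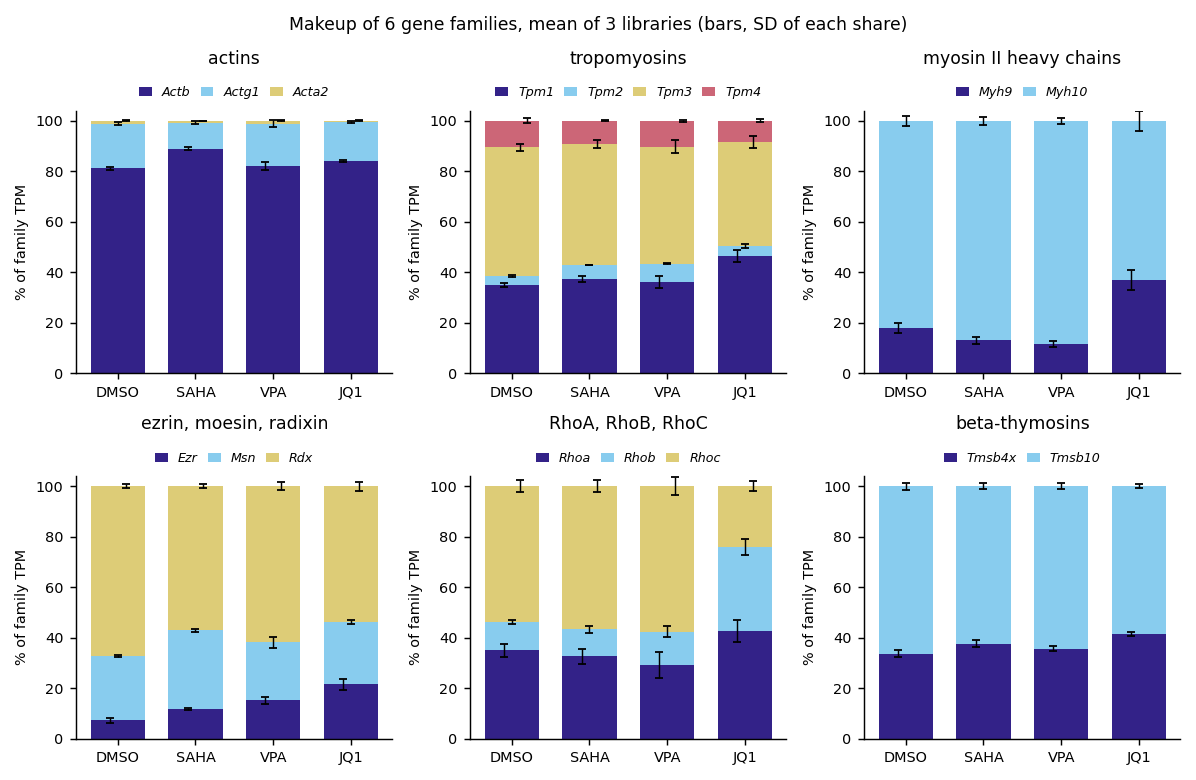
Percentage of the summed TPM of 6 gene families (y axis, from 0) held by each gene, as the mean of 3 libraries per group, with error bars for the SD of each share. With JQ1 the share of Myh9 among myosin II heavy chains was 37.1% against 18% with DMSO, and that of Rhob among Rhoa, Rhob and Rhoc was 33.5% against 11.2%.

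Focal adhesion genes went in both directions with JQ1. Vcl encodes vinculin, which links talin to actin and strengthens adhesions under load. Its level was 7.89, 11.1 and 7.54 TPM with DMSO, 13.1, 13.5 and 13.8 TPM with SAHA, 8.29, 11.4 and 9.77 TPM with VPA and 27.1, 26.1 and 28.5 TPM with JQ1. The JQ1 libraries lay above all others, and Vcl rose 2.91-fold with JQ1 (1.54, adjusted p = 2.47e-05). The SAHA libraries also lay above those with DMSO, with a log2 difference of 0.58, adjusted p = 0.0684, which passed without DMSO replicate 2 (0.0342). It also passed with a filter at 5 TPM (0.0448) and with TPM multiplied by gene length (0.0419). Vasp encodes a protein that elongates filaments at adhesions and protrusions. It was at 25.6, 26.7 and 26.9 TPM with DMSO, 29.1, 27.2 and 24.8 TPM with SAHA, 30.3, 27.1 and 33.0 TPM with VPA and 16.0, 11.0 and 13.1 TPM with JQ1. It fell 1.93-fold with JQ1 (-0.95, adjusted p = 0.000308). Zyx encodes zyxin, which recruits Vasp to strained stress fibres. It fell from 22.3 ± 1.71 to 16.1 ± 2.4 TPM with JQ1 (-0.45, adjusted p = 0.0164). Tln1 encodes talin 1, which activates integrins. Its level was 124, 163 and 115 TPM with DMSO, 99.8, 81.5 and 86.5 TPM with SAHA, 141, 117 and 117 TPM with VPA and 128, 127 and 127 TPM with JQ1. The SAHA libraries were the lowest, 1.48-fold below DMSO (-0.57, adjusted p = 0.0305). The call on Tln1 ended without DMSO replicate 1 (0.0587), DMSO replicate 2 (0.0788), SAHA replicate 2 (0.103) or SAHA replicate 3 (0.0878), and that on Zyx ended without DMSO replicate 2 (0.0593) or JQ1 replicate 3 (0.0619) and under median-of-ratios scaling (0.057).

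Beta-thymosins, which bind actin monomers and keep them from polymerising, rose with all 3 drugs. Tmsb4x encodes thymosin beta-4. Its level was 726, 720.1 and 750.1 TPM with DMSO, 1209, 1166 and 1036 TPM with SAHA, 970.2, 936 and 1062 TPM with VPA and 1806, 1749.9 and 1734 TPM with JQ1. All treated libraries exceeded the DMSO libraries, and those with JQ1 exceeded all others. Tmsb4x rose 1.55-fold with SAHA (0.63, adjusted p = 0.000277), 1.35-fold with VPA (0.43, adjusted p = 0.00352) and 2.41-fold with JQ1 (1.27, adjusted p = 6.52e-08). Tmsb10 encodes thymosin beta-10, the more abundant of the pair here in TPM. It was at 1479, 1471 and 1374 TPM with DMSO, 1890.3, 1939.6 and 1813 TPM with SAHA, 1687, 1777 and 1901 TPM with VPA and 2453, 2515 and 2492 TPM with JQ1. It rose 1.31-fold with SAHA (0.38, adjusted p = 0.00111), 1.24-fold with VPA (0.31, adjusted p = 0.0055) and 1.73-fold with JQ1 (0.79, adjusted p = 3.9e-07). The summed level of the pair was 2173 ± 43.5 TPM with DMSO, 3018 ± 146 with SAHA, 2778 ± 163 with VPA and 4250 ± 20.7 with JQ1 (SD, n = 3). These 6 calls held whichever library was left out.

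Profilin went the other way with JQ1. Pfn1 encodes profilin 1, which hands monomers to growing filament ends. Its level was 222, 191 and 185 TPM with DMSO, 207, 239 and 252 TPM with SAHA, 218, 220.4 and 181 TPM with VPA and 109, 103 and 92.5 TPM with JQ1. It fell 1.95-fold with JQ1 (-0.97, adjusted p = 4.53e-05), where no library overlapped another group. Cfl1, the main cofilin, which severs old filaments, was at 685 ± 19.8 TPM with DMSO and 624 ± 56.3 TPM with JQ1 (-0.14, adjusted p = 0.0952). That difference passed without JQ1 replicate 3 (0.0115). Cfl2, the cofilin known from muscle, passed with no drug.

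Of the Arp2/3 subunits, Arpc1b was at 1058, 1069 and 1067 TPM with DMSO, 985, 979 and 919.6 TPM with SAHA, 973, 948 and 951 TPM with VPA and 727, 687 and 736 TPM with JQ1. The complex starts new filaments as branches on old ones. Arpc1b fell 1.49-fold with JQ1 (-0.57, adjusted p = 1.36e-06), and its log2 differences with SAHA (-0.15, adjusted p = 0.0638) and VPA (-0.15, adjusted p = 0.0609) were close to the threshold. Both passed under median-of-ratios scaling (0.0445 with SAHA, 0.0109 with VPA) and with a filter at 5 TPM (0.0469 and 0.0481), and that with VPA also without SAHA replicate 3 (0.0458). Arpc2 fell from 261 ± 15.5 to 194 ± 7.23 TPM with JQ1 (-0.43, adjusted p = 0.000388). Arpc5 and Cttn (cortactin, which stabilises branches) passed with no drug. Cttn was at 37.6 ± 1.52 TPM with DMSO and 47.3 ± 3.16 TPM with JQ1 (0.32, adjusted p = 0.0536), and it passed without SAHA replicate 2 (0.0463) or SAHA replicate 3 (0.0302) and under median-of-ratios scaling (0.0132).

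The ERM proteins ezrin, moesin and radixin tie the filament cortex to the plasma membrane, and their genes parted. Ezr encodes ezrin. Its level was 18.8, 15.0 and 20.7 TPM with DMSO, 29.3, 28.4 and 28.1 TPM with SAHA, 39.4, 32.3 and 33.5 TPM with VPA and 47.1, 40.5 and 44.8 TPM with JQ1. All treated libraries lay above the DMSO libraries. Ezr rose 1.56-fold with SAHA (0.64, adjusted p = 0.0177), 1.89-fold with VPA (0.92, adjusted p = 0.00352) and 2.37-fold with JQ1 (1.25, adjusted p = 2.44e-05). Rdx encodes radixin. It was at 167, 167 and 166 TPM with DMSO, 135, 138 and 145 TPM with SAHA, 143, 139 and 144 TPM with VPA and 103, 117 and 113 TPM with JQ1. All treated libraries lay below the DMSO libraries. It fell 1.5-fold with JQ1 (-0.59, adjusted p = 2.96e-05) and 1.2-fold with SAHA (-0.26, adjusted p = 0.0377), and the difference with VPA was -0.23, adjusted p = 0.0685. Msn, moesin, fell from 62.9 ± 0.0755 to 50.9 ± 2.73 TPM with JQ1 (-0.30, adjusted p = 0.0203). Ezrin made up 7.31% ± 1.1 of the TPM of the 3 genes with DMSO, 11.8% ± 0.567 with SAHA, 15.2% ± 1.48 with VPA and 21.5% ± 2.22 with JQ1 (SD, n = 3).

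Limits touch several of these calls. The rise of Ezr with SAHA ended without DMSO replicate 2 (0.0552), SAHA replicate 1 (0.0581) or SAHA replicate 2 (0.0528). The fall of Rdx with SAHA held only without VPA replicate 3, JQ1 replicate 1 or JQ1 replicate 2 (otherwise adjusted p from 0.0506 to 0.115). That of Msn with JQ1 ended without any 1 DMSO library, JQ1 replicate 1 or JQ1 replicate 3 (0.0502 to 0.0656). The Msn call also ended under median-of-ratios scaling (0.121) and with TPM multiplied by gene length (0.0565).

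Add3 had the largest log2 change of the 50 tested members with each drug. It encodes gamma-adducin, a protein that caps filaments and joins them to the spectrin network under the membrane. Its level was 3.78, 2.53 and 4.07 TPM with DMSO, 15.9, 10.9 and 13.8 TPM with SAHA, 16.0, 21.9 and 14.7 TPM with VPA and 17.8, 23.5 and 19.4 TPM with JQ1. Each treated library was above 10 TPM and each DMSO library under 5 TPM. Add3 rose 3.27-fold with SAHA (1.71, adjusted p = 0.00111), 4.15-fold with VPA (2.05, adjusted p = 0.000421) and 4.79-fold with JQ1 (2.26, adjusted p = 1.04e-05). These folds are on the TPM + 1 scale, which understates the change of low genes. Add1, alpha-adducin, was at 15.3, 14.4 and 8.47 TPM with DMSO, 15.9, 13.3 and 12.2 TPM with SAHA, 15.1, 19.6 and 18.1 TPM with VPA and 18.9, 20.9 and 24.9 TPM with JQ1. It rose 1.68-fold with JQ1 (0.75, adjusted p = 0.018), a call that ended without DMSO replicate 3 (0.0561) or JQ1 replicate 3 (0.0675). Add3 made up 22.4% ± 9.04 of the TPM of these adducins with DMSO and 49.4% ± 3.98, 49.6% ± 4.32 and 48.4% ± 4.55 with SAHA, VPA and JQ1 (SD, n = 3).

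Of the intermediate filament genes, Vim encodes vimentin, the main such protein of mesenchymal and endothelial cells. Its level was 1320.0, 1325 and 1287 TPM with DMSO, 1647, 1648 and 1596 TPM with SAHA, 1241, 1243 and 1285 TPM with VPA and 1297, 1298 and 1299 TPM with JQ1. The SAHA libraries stood apart from all others, 1.24-fold above DMSO (0.31, adjusted p = 0.000282). Nes encodes nestin, which assembles with vimentin. It was at 6.04, 6.51 and 4.89 TPM with DMSO, 9.34, 10.7 and 12.3 TPM with SAHA, 12.4, 9.48 and 8.09 TPM with VPA and 3.50, 3.38 and 4.88 TPM with JQ1. It rose 1.73-fold with SAHA (0.79, adjusted p = 0.0475), and the JQ1 libraries were the lowest without passing (-0.48, adjusted p = 0.0947). Lmna encodes the A-type lamins of the nuclear envelope. It was at 146, 174 and 171 TPM with DMSO, 159, 169.8 and 159 TPM with SAHA, 182, 148 and 153 TPM with VPA and 103, 125 and 97.1 TPM with JQ1. It fell 1.51-fold with JQ1 (-0.59, adjusted p = 0.00181). Des, desmin of muscle, was listed at 0 in 11 libraries and at 0.18 TPM in DMSO replicate 3. The call on Nes held only without VPA replicate 1, VPA replicate 3 or JQ1 replicate 3, and without each other library the adjusted p was 0.0563 to 0.147. It also ended under median-of-ratios scaling (0.0509).

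Srf was low and fell with JQ1. Its level was 7.61, 5.40 and 5.77 TPM with DMSO, 4.53, 6.34 and 3.54 TPM with SAHA, 4.01, 5.27 and 3.58 TPM with VPA and 2.56, 1.16 and 3.68 TPM with JQ1. The 3 JQ1 libraries were below the DMSO libraries, and Srf fell 2.18-fold on the TPM + 1 scale (-1.12, adjusted p = 0.0128, 95% interval -1.78 to -0.47). With SAHA and VPA the log2 differences were -0.34 and -0.46, with adjusted p of 0.596 and 0.464.

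The genes of RhoA, RhoB and RhoC changed in makeup with JQ1. Rhob encodes RhoB, a short-lived GTPase of endosomes and the plasma membrane. Its level was 24.9, 27.6 and 25.8 TPM with DMSO, 36.4, 36.7 and 34.6 TPM with SAHA, 35.5, 46.6 and 37.6 TPM with VPA and 114, 105 and 94.6 TPM with JQ1. The JQ1 libraries stood far above all others. Rhob rose 3.89-fold with JQ1 (1.96, adjusted p = 3.2e-07), 1.5-fold with VPA (0.58, adjusted p = 0.0169) and 1.36-fold with SAHA (0.44, adjusted p = 0.0499). Rhoc encodes RhoC, known for its part in tumour cell invasion. It was at 117, 122 and 137 TPM with DMSO, 175, 187 and 214 TPM with SAHA, 165, 179 and 179 TPM with VPA and 73.2, 79.8 and 71.4 TPM with JQ1. It rose 1.52-fold with SAHA (0.61, adjusted p = 0.00319) and 1.39-fold with VPA (0.48, adjusted p = 0.0147), and it fell 1.67-fold with JQ1 (-0.74, adjusted p = 8.63e-05). Rhoa encodes RhoA, the main activator of stress fibres. It was at 87.3, 75.4 and 81.9 TPM with DMSO, 108, 91.8 and 132 TPM with SAHA, 109, 76.0 and 81.6 TPM with VPA and 130.2, 119 and 149.7 TPM with JQ1. It rose 1.62-fold with JQ1 (0.70, adjusted p = 0.00544). Rnd3 encodes a GTPase that opposes RhoA signalling. It was at 33.0, 33.4 and 31.6 TPM with DMSO, 27.3, 34.2 and 29.6 TPM with SAHA, 25.4, 30.8 and 25.9 TPM with VPA and 62.5, 53.4 and 63.8 TPM with JQ1. It rose 1.8-fold with JQ1 (0.85, adjusted p = 0.000211), with no overlap with the other groups.

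Of the summed TPM of Rhoa, Rhob and Rhoc, Rhob held 11.2% ± 0.935 with DMSO and 33.5% ± 3.14 with JQ1, and Rhoc held 53.8% ± 2.48 and 24% ± 2 (SD, n = 3). The rise of Rhob with SAHA held only without VPA replicate 2, and without each other library the adjusted p was 0.0504 to 0.142. With VPA it ended without DMSO replicate 1 (0.0636), DMSO replicate 3 (0.0572) or VPA replicate 2 (0.0551), and that of Rhoc with VPA ended without DMSO replicate 1 (0.0615), DMSO replicate 2 (0.0557), VPA replicate 2 (0.0562) or VPA replicate 3 (0.0549).

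Between the drugs, SAHA and VPA differed in few members. Their doses and times differ too, so drug, dose and time cannot be told apart. With SAHA, 4 of 50 members were higher than with VPA and 1 was lower, beside 0.265% and 0.187% of all tested genes. Actg1 was the lower one (-0.57, adjusted p = 0.000297), at 490 ± 7.88 TPM with SAHA and 731 ± 28.5 TPM with VPA. Vim was higher (0.38, adjusted p = 0.000384), at 1630 ± 29.5 and 1256 ± 24.8 TPM. Actb (0.26, adjusted p = 0.0299), Cald1 (0.27, adjusted p = 0.0224) and Msn (0.52, adjusted p = 0.0284) were the other higher members. The calls of Actg1 and Vim held whichever library was left out. That of Actb ended without DMSO replicates 1 or 2, SAHA replicates 2 or 3, or VPA replicates 1 or 3 (0.0541 to 0.111), that of Cald1 without SAHA replicates 1 or 3 or any VPA library (0.0542 to 0.0939), and that of Msn without DMSO replicates 1 or 2, any SAHA library, or VPA replicates 1 or 3 (0.0528 to 0.119). For Tmsb4x the log2 difference was 0.20 (95% interval 0.07 to 0.33), for Ezr -0.28 (-0.57 to 0.00), for Myh10 -0.05 (-0.29 to 0.19) and for Add3 -0.34 (-0.80 to 0.12), none of which passed.

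The exposure to VPA and to JQ1 was 36 h in both cases. With VPA, 20 of 50 members were higher than with JQ1 and 12 were lower, beside 22.9% and 10.3% of all tested genes. Among genes averaging at least 10 TPM these shares were 35% and 13.4%, beside 42.2% and 26.7% of the 45 members at that level. The members farthest to the VPA side were Tpm2 (1.50, adjusted p = 2.01e-06), Cnn2 (1.41, adjusted p = 9.66e-08) and Rhoc (1.21, adjusted p = 2.05e-06). Those farthest to the JQ1 side were Vcl (-1.39, adjusted p = 5.61e-05), Rhob (-1.37, adjusted p = 4.71e-06) and Rnd3 (-1.10, adjusted p = 3.17e-05). Median-of-ratios scaling moved the median of all genes in this comparison by -0.15, and with it 15 members were higher and 17 lower with VPA. Under it the difference of Actg1 (0.14, adjusted p = 0.0278) turned to -0.05 (0.457), and with TPM multiplied by gene length it was 0.07 (0.306). That call also ended without VPA replicates 1 or 3 or any JQ1 library (0.0515 to 0.1). Of the 32 calls, 27 held whichever library was left out.

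SAHA and JQ1 were both given at 1 µM, for 24 h and 36 h. With SAHA, 21 of 50 members were higher than with JQ1 and 14 were lower, beside 21.3% and 11.9% of all tested genes. At 10 TPM or more the shares were 33.6% and 15.4% of all genes and 44.4% and 31.1% of members. Rhoc (1.34, adjusted p = 9.29e-07), Nes (1.27, adjusted p = 0.000572) and Pfn1 (1.19, adjusted p = 9.5e-06) lay farthest to the SAHA side. Rhob (-1.51, adjusted p = 2.17e-06), Vcl (-0.96, adjusted p = 0.000785) and Rnd3 (-0.96, adjusted p = 8.98e-05) lay farthest to the JQ1 side. For Tagln, which fell with both, the difference was 0.12 (95% interval -0.30 to 0.55). Each pair of drugs shares libraries with the comparisons against DMSO, and these results restate those levels rather than add to them.

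**Figure D4:**
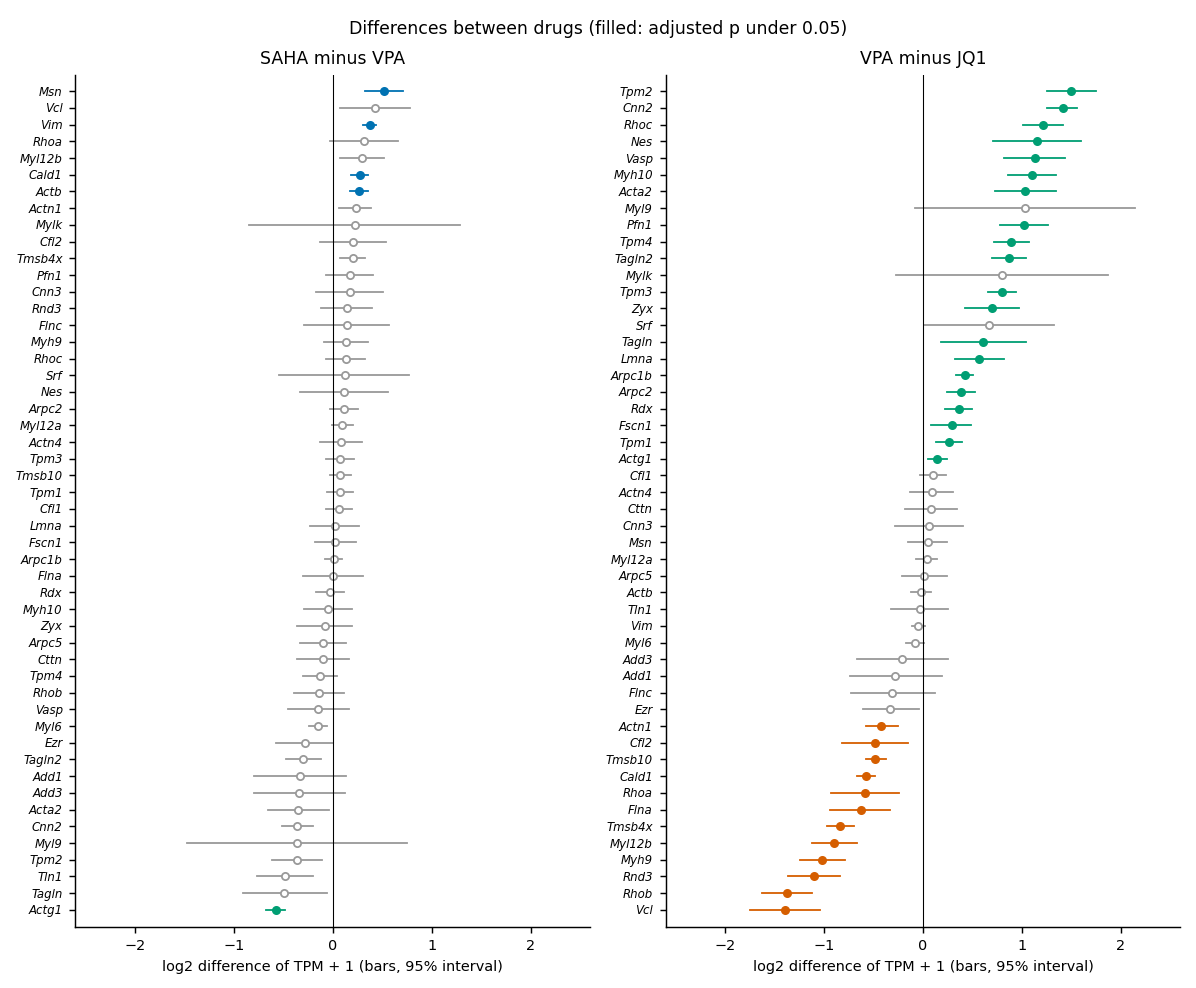
Differences between drugs in the 50 tested members as log2 difference of TPM + 1 (x axis), ordered by size, with bars for the 95% interval, SAHA minus VPA at left and VPA minus JQ1 at right. Filled points passed the adjusted p of 0.05, coloured by the drug with the higher level, and 5 did so at left and 32 at right.

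Other genes of the actin pathway were counted on 7 lists of non-members. The median log2 change of a list was 0 to 0.23 with SAHA, -0.05 to 0.24 with VPA and 0 to 0.28 with JQ1, beside 0.01, 0.06 and -0.07 over all tested genes. The shares of all tested genes higher and lower, 12.9% and 21% with JQ1, 3.09% and 2.1% with SAHA, and 2.95% and 1.32% with VPA, are the background for each list. This background is not matched for abundance, although calls were more frequent among abundant genes. A list near or below it is so only beside all tested genes. For the genes named, the mean with the drug is set against that with DMSO (SD, n = 3). Of 30 tested adhesion and stress fibre genes, 11 were higher (36.7%) and 7 lower (23.3%, near the background) with JQ1, 2 higher and 0 lower with SAHA, and 3 higher and 0 lower with VPA, while 3 were lower with SAHA and 1 with VPA at an unadjusted p under 0.05 (limma). Pdlim5, a stress fibre protein that binds alpha-actinin, was at 20.7 ± 3.93 TPM against 7.47 ± 0.546 TPM (1.34, adjusted p = 0.000273) with JQ1.

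Small GTPase signalling held 27 tested genes, of which 9 were higher (33.3%) and 7 lower (25.9%, near the background) with JQ1, 4 higher and 1 lower with SAHA, and 2 higher and 0 lower with VPA, with 0 lower at an unadjusted p under 0.05 (limma). Rhoj, a relative of Cdc42 known from endothelial cells, fell to 1.83 ± 0.614 TPM against 15.1 ± 2.54 TPM (-2.51, adjusted p = 3.89e-05) with JQ1. It averaged 30.3 TPM with VPA, a difference that passed without VPA replicate 1 (0.0458). Ect2 and Net1 activate small GTPases by exchanging their nucleotide, Ect2 in cell division. With JQ1, Ect2 was at 5.94 ± 2.11 TPM against 23.4 ± 0.822 TPM (-1.86, adjusted p = 0.000208) and Net1 at 5.73 ± 1.63 TPM against 16.7 ± 1.71 TPM (-1.42, adjusted p = 0.000597).

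Among 26 filament turnover genes, 2 were higher and 2 lower with JQ1 (7.69% each, below the background shares), and 4 were higher with SAHA and 3 with VPA, with 0 lower in either (1 and 0 at an unadjusted p under 0.05, limma). Gsn encodes gelsolin, which severs and caps filaments. It averaged 47.8 TPM with DMSO and rose to 90.2 TPM with SAHA (0.91, adjusted p = 0.000212), 71.9 TPM with VPA (0.58, adjusted p = 0.00403) and 109 TPM with JQ1 (1.17, adjusted p = 1.44e-06). With JQ1, Coro1b, a coronin that acts on branches, was at 68.3 ± 12.9 TPM against 28 ± 4.92 TPM (1.26, adjusted p = 7.15e-05). Eps8, which caps and bundles filaments, was at 148 ± 24 TPM against 345 ± 33 TPM (-1.22, adjusted p = 1.03e-05).

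Of 21 genes of the Arp2/3 complex, its activators and the formins, 2 were higher (9.52%) and 5 lower (23.8%) with JQ1, both near the background, and 0 passed with SAHA or VPA, where 2 and 1 had an unadjusted p under 0.05 (limma). The formins Diaph3 and Daam1 went opposite ways, with Diaph3 at 16.7 ± 3.85 TPM against 35.4 ± 10.1 TPM (-1.03, adjusted p = 0.002) and Daam1 at 8.27 ± 0.976 TPM against 3.61 ± 1.07 TPM (1.03, adjusted p = 0.00937). Wipf1, a partner of WASP proteins, was at 4.28 ± 0.734 TPM against 9.24 ± 0.404 TPM (-0.97, adjusted p = 0.0206), a call that ended without DMSO replicate 2 (0.0582) or JQ1 replicate 3 (0.0712).

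Of 15 other myosins and regulators of contractility, 4 were higher (26.7%) and 2 lower (13.3%, below the background) with JQ1, 1 was lower with SAHA and 0 passed with VPA, where 3 had an unadjusted p under 0.05 (limma). Myo6, the motor that walks towards the pointed end, rose to 52.8 ± 3.52 TPM against 14.5 ± 8.17 TPM (1.98, adjusted p = 0.00152). Ppp1r14b, an inhibitor of protein phosphatase 1, fell to 214 ± 28.3 TPM against 694 ± 22.7 TPM (-1.70, adjusted p = 2.97e-07). Smtn, smoothelin of contractile smooth muscle, fell to 7.72 ± 2.03 TPM against 22.4 ± 7.24 TPM (-1.40, adjusted p = 0.000578), the one of the 4 tested smooth muscle markers that passed.

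Of 18 genes of the membrane skeleton, keratins and lamins, 5 were higher (27.8%) and 4 lower (22.2%, near the background) with JQ1, 2 higher with SAHA and 1 higher with VPA, with 0 lower in either (0 and 1 at an unadjusted p under 0.05, limma). Sptan1, which encodes a spectrin chain, rose to 66.4 ± 10.8 TPM against 18.1 ± 1.99 TPM (1.81, adjusted p = 5.32e-06) with JQ1. Ank3, an ankyrin that anchors membrane proteins to spectrin, fell to 7.55 ± 1.82 TPM against 28.6 ± 3.44 TPM (-1.81, adjusted p = 1.22e-05). Lmnb1, lamin B1, fell to 10.6 ± 0.46 TPM against 37.9 ± 2.03 TPM (-1.75, adjusted p = 5.09e-06).

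Of 7 SRF partners, 1 was higher and 1 lower with JQ1 (14.3% each, beside 12.9% and 21%), 1 was lower with SAHA and 0 passed with VPA, where 1 had an unadjusted p under 0.05 (limma). The 3 that passed were the ternary complex factors, which bind SRF at growth factor responsive promoters. Elk3 was at 6.84 ± 2.99 TPM against 19.9 ± 1.04 TPM (-1.48, adjusted p = 0.00102) with JQ1 and Elk1 at 5.53 ± 0.178 TPM against 3.49 ± 0.531 TPM (0.55, adjusted p = 0.0279). Elk4 was at 14.7 ± 4.74 TPM against 28.2 ± 1.82 TPM (-0.93, adjusted p = 0.0341) with SAHA. With VPA it averaged 15.7 TPM without passing. The VPA difference passed under median-of-ratios scaling (0.0409), with a filter at 5 TPM (0.0446) and with TPM multiplied by gene length (0.0491). It also passed without SAHA replicate 3 (0.0284) or VPA replicate 1 (0.0409). The call on Elk4 with SAHA ended without any 1 DMSO library, SAHA replicate 1 or SAHA replicate 2 (0.0742 to 0.11). It also ended with no filter on low values (0.0568), in the 2-group fit (0.0928) and with the replicate block (0.0649). That on Elk1 with JQ1 ended without DMSO replicates 2 or 3 or any JQ1 library (0.0547 to 0.099). The Elk1 call also ended with no filter on low values (0.0666) and in the 2-group fit (0.0672).

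**Figure D5:**
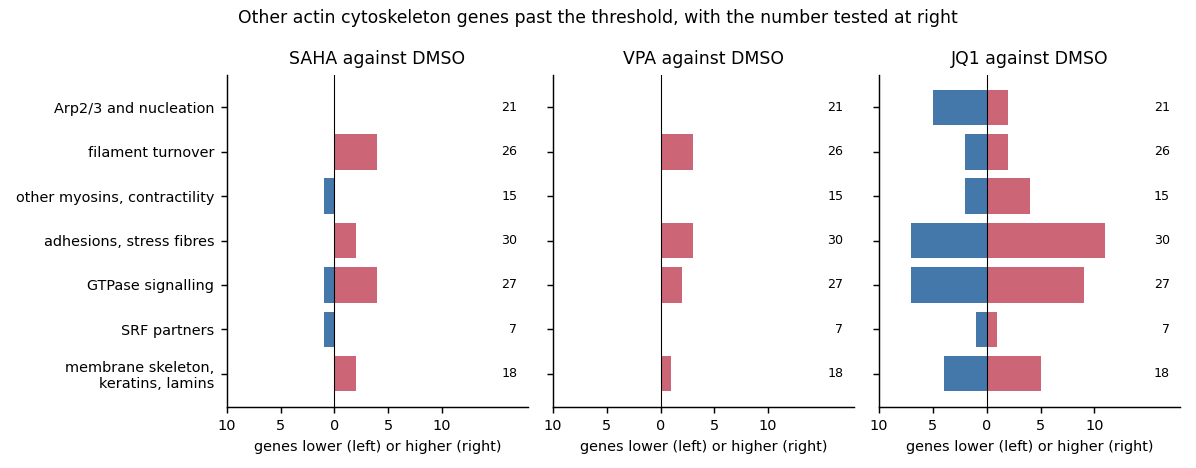
Number of genes past the adjusted p of 0.05 against DMSO, higher to the right of 0 and lower to the left, for 7 lists of genes outside the 52 members, with the number tested at the right of each row. With JQ1, 11 adhesion and stress fibre genes were higher and 7 lower, and each list held calls in both directions.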

How the data were processed

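Bulk RNA of 12 libraries was measured from the 3′ end of transcripts. The deposited values are TPM, a length-scaled abundance made by the authors. Tools listed in the submitters' processing notes, with no role given, are STAR, RSEM, edgeR and bcl2fastq 2.17, and the listed build is mm39. Each transcript gives about the same number of 3′ tags whatever its length, so the division by length in TPM can shift levels between genes and, through the fixed total of a library, changes within a gene. The 52 members and all gene lists were chosen with earlier results of these data known. A filter kept each gene that reached 1 TPM in 3 or more libraries, and values were taken as log2(TPM + 1) and fitted with 4 group means (R 4.3.3, limma 3.58.1, trended eBayes, 8 residual degrees of freedom). Tests were two-sided, and calls use a Benjamini-Hochberg adjusted p under 0.05 over all 12836 tested genes. Fold changes are on the TPM + 1 scale.

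Values are given in every library for members called in a drug against DMSO with a log2 change of at least 0.5 and a mean of at least 5 TPM, and for Acta2, Actb, Actg1, Srf, Tagln, Cnn1, Myl9, Tpm1, Vim and Tmsb4x. Up to 3 called genes are named per list of other pathway genes, and a few that the rule names are not reported here. Genes sharing 50-base stretches with the last 500 bases of a member (GENCODE M21) were counted as copies. Alternatives were another scaling, other filters, a pseudocount of 0.1, TPM multiplied by gene length, 2-group fits, robust shrinkage, a replicate block and leaving out each library. The gene length was the union of exons in GENCODE M21, found for 12702 tested genes, and the products were rescaled to a fixed total. It may differ from the length the authors divided by, so their division is undone only approximately. Sheets holding each drug beside DMSO repeat the matrix and were not used. Python 3.11.15 with matplotlib 3.10.9 drew the figures.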

Additional observations from a re-analysis of the deposited data

How the results depend on the processing

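TPM keep no depth, 3 libraries a group give few degrees of freedom, and 3′ tags divided by gene length make levels between genes approximate. The numbers of members called stayed within 1.5 times of those reported, except for SAHA against DMSO and SAHA against VPA. SAHA against DMSO gave 11 in place of 18 when only the 2 groups compared were fitted. SAHA against VPA gave 2 in place of 5 in the same fit and 2 with the replicate block. Leaving out 1 library at a time gave 12 to 16 for SAHA against DMSO and 2 to 5 for SAHA against VPA. All genes called fell from 666 to 369 for SAHA and from 548 to 243 for VPA against DMSO, and from 58 to 19 for SAHA against VPA, in the 2-group fits, which have 4 residual degrees of freedom in place of 8. Without 1 library the lowest counts were 365, 294 and 15. The cause of these lower counts was not tested.

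Under median-of-ratios scaling, 94 genes differed between SAHA and VPA, 73 of them higher with SAHA. All genes higher and lower went from 379 and 169 to 270 and 293 for VPA against DMSO, from 2945 and 1319 to 2253 and 1927 for VPA against JQ1, and from 2737 and 1533 to 2281 and 2010 for SAHA against JQ1. Under it Vim with JQ1 turned to 0.10, Actg1 for VPA against JQ1 to -0.05 and Myl12a for VPA against JQ1 to -0.16 on the log2 scale.

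Deviations of libraries correlated weakly, both for the same number (18 correlations between -0.0449 and 0.0789) and for different numbers (36 between -0.067 and 0.0558). Of the 12 libraries, 6 correlated best with one of their own number, and these values do not decide whether the numbers mark pairs. The labels state no pairing, and the numbers were not taken as pairs. With the replicate block the members called were 14 with SAHA, 11 with VPA and 37 with JQ1, 31 for VPA against JQ1 and 34 for SAHA against JQ1. For SAHA against VPA all genes called were 24.

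Beyond the libraries and scaling named with the results, some calls against DMSO ended under other settings. In the 2-group fits these were Flnc, Cald1, Tln1, Ezr, Rdx, Nes and Rhob with SAHA (adjusted p from 0.0625 to 0.133). Myl6, Tmsb10 and Rhob with VPA (0.0547 to 0.0881), and Actn1, Tpm1, Zyx and Add1 with JQ1 (0.0607 to 0.0681) also ended there. With no filter on low values Flnc, Tln1, Nes and Rhob with SAHA (0.0509 to 0.0841), Myl6 with VPA (0.0697), and Actb and Tpm1 with JQ1 (0.0954 and 0.0802) ended. Rhob with SAHA also ended under median-of-ratios scaling (0.0541), with TPM multiplied by gene length (0.0705) and with robust shrinkage (0.0525). Nes with SAHA ended with a pseudocount of 0.1 (0.0543). With the replicate block, Flnc, Rdx, Nes and Rhob with SAHA (0.0632 to 0.0942), and Actb (0.0668) and Tpm1 (0.0517) with JQ1 ended. Without mitochondrial genes and Rn18s, Rdx (0.0533) and Nes (0.0506) with SAHA, and Tpm1 (0.205) and Msn (0.0625) with JQ1 ended. Calls were also gained under other settings. Cttn with JQ1 passed with a filter at 5 TPM (0.0419), in the 2-group fit (0.0381) and with TPM multiplied by gene length (0.0211). It also passed without mitochondrial genes and Rn18s (0.0309). Arpc5 with JQ1 passed under median-of-ratios scaling (0.0484).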
